A study of Mus musculus with 5 samples.

Results

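Cells picked by a marker rule as pregranulosa cells, the granulosa cells of primordial follicles, were studied in dissociated ovaries of mice aged 2, 3, 4, 5 and 6 wk. They were chosen by counts of 10 genes. A cell was a member when it had at least 1000 detected genes and under 15% of its UMIs (unique molecular identifiers, 1 per captured transcript) from mitochondrial genes. It also needed a UMI of at least 3 of Gatm, Lhx9, Col18a1, Nrgn and Aldh1a2, at least 2 UMIs of Inha, at most 2 of Amh, and none of Krt19, Lgals7 and Dcn. The limit on Inha was read as a condition of its own, beside the 3 of 5 markers. In all, 171 cells met the rule, of 39967 that passed the limits on genes and mitochondrial share and of 48163 deposited cells.

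All 5 libraries came from untreated C57BL6/J ovaries that were dispersed with trypsin, with 1 library for each age and no replicate of any age. The labels do not give how many mice a library holds. The libraries held 124938004, 93438618, 117666094, 107071492 and 144609431 UMIs at 2, 3, 4, 5 and 6 wk. Members numbered 78, 48, 14, 19 and 12, so most rest in the 2 younger libraries, and their median depth was 12511, 9012, 8756, 13910 and 14600 UMIs per cell. The 2, 3 and 4 wk libraries were counted with another version of the counting software than the 5 and 6 wk libraries, and this step and age cannot be told apart.

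A primordial follicle is an oocyte halted in meiosis and enclosed by a few flat granulosa cells that do not divide. These pregranulosa cells hold the follicle at rest through inhibitors of the cell cycle, and they send KIT ligand to the oocyte, whose PI3K and FOXO3 pathway starts growth. Once a follicle is recruited, its granulosa cells become cuboidal, divide and make anti-Mullerian hormone, which restrains other follicles. In the cortex of the ovary, pregranulosa cells come from the surface epithelium around birth, while those near the medulla come from an earlier lineage.

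The genes of the rule are given as a description, since they chose the members. Col18a1, a basement membrane collagen, had a UMI in 100% of members of every library. Gatm, the enzyme of the 1st step of creatine synthesis, had a UMI in 100%, 97.9%, 100%, 68.4% and 75.0% of members at 2, 3, 4, 5 and 6 wk. Lhx9, a transcription factor of the gonad, had a UMI in 44.9%, 25.0%, 14.3%, 36.8% and 16.7%. Nrgn was found in 56.4 to 75.0% of members and Aldh1a2, which makes retinoic acid, in 41.7 to 63.2%. The lowest share of Gatm thus fell in the 2 oldest libraries.

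Most members held just 3 of the markers. At 2 wk, 43 members held 3 of the 5 markers, 31 held 4 and 4 held all 5. At 3 wk these numbers were 40, 7 and 1, and at 6 wk 11, 1 and 0. Exactly 2 UMIs of Inha, the inhibin alpha chain, were seen in 10, 11, 1, 4 and 1 members, and Amh was at 0 in 40, 23, 7, 14 and 6. Among cells that passed every other limit, 14.8% held at least 3 of the 5 markers at 2 wk, 6.01% at 3 wk, 0.616% at 4 wk, 1.14% at 5 wk and 0.569% at 6 wk. The same share in cells with at least 10 UMIs of Dcn, a stromal proteoglycan, was 2.24% over all libraries, and at 4, 5 and 6 wk it was 1.03%, 1.46% and 1.5%, above that of the gate. In Amh-high granulosa, described below, it was 3.28% over all libraries against 2.32% in the gate. It was 0 of 204 in blood cells, which allows a share of up to 1.79%. The markers alone were therefore not exclusive to granulosa cells, and the limits on Inha, Amh, Krt19, Lgals7 and Dcn cut the 1447 cells with 3 markers to 171.

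Markers of granulosa cells that the rule did not use were present. At least 3 of 8 such genes had a UMI in 78 of 78, 45 of 48, 14 of 14, 17 of 19 and 10 of 12 members. Foxl2, the transcription factor that keeps granulosa identity, had a UMI in 97.4%, 70.8%, 64.3%, 73.7% and 91.7% of members. In blood cells of the same libraries, which should lack it, the share with a Foxl2 UMI was 9.09%, 0%, 12%, 3.70% and 12%, at medians of 8596, 4382, 7026, 6914 and 8972 UMIs per cell. Markers of growing follicles were present as well. At least 3 of 8 such genes outside the rule, which include Wnt4, Igfbp5, Inhba and Hsd17b1, had a UMI in 48 of 78, 22 of 48, 9 of 14, 11 of 19 and 9 of 12 members. They summed to 1000, 774, 885, 653 and 1103 CPM (UMIs scaled to a fixed total of UMIs for each class and library) against 1716, 1168, 1230, 1579 and 1637 CPM in granulosa cells with at least 10 UMIs of Amh. The members were thus below those cells in each library. The sums were 940, 818, 893, 1476 and 980 CPM without members marked as another type, described next. At 5 wk this came near the 1579 CPM of Amh-high granulosa. The members were not free of growing-follicle markers, which goes against reading all of them as cells of primordial follicles. The list is limited here, since Igfbp5 and Wnt4 were not called between the 2 classes, as given below. In blood cells at 2 wk, 18.2% held an Igfbp5 UMI and 12.1% a Wnt4 UMI. No list outside the rule tested for the primordial stage itself, and pregranulosa is used below as the name of the cells that met the rule.

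Part of the members also held markers of other cell types. In 20 of the 171, UMIs of at least 3 marker genes of stroma, theca, smooth muscle, pericytes, endothelium, blood or oocytes were found, a count made after the values had been seen. The 2, 3, 4, 5 and 6 wk libraries held 5, 2, 2, 8 and 3 of them. The 8 of the 5 wk library included 6 cells with theca markers, 3 with endothelial markers and 1 with blood markers, and all 3 of the 6 wk library had pericyte markers. These cells were deep and carried 9.42%, 5.97%, 24.7%, 68.4% and 33.9% of all member UMIs. The level of a gene in the 5 wk members is therefore mostly set by 8 cells.

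The summed level of the 5 theca markers in members was 23.3, 8.77, 350.0, 5059 and 52.7 CPM at 2, 3, 4, 5 and 6 wk. It was 8.11 CPM at 5 wk without the 8 marked cells. Their most abundant gene was Cyp11a1, the side chain cleavage enzyme of steroid synthesis, and all of its 1004 UMIs at 5 wk lay in those cells. Endothelial markers summed to 1060 CPM at 5 wk and to 24.3 without the marked cells, and pericyte markers to 858 CPM at 6 wk and to 0 without them. The defining genes of blood were at 0 UMIs in the members of 4 libraries, and those of oocytes were at 0 at 2, 4 and 6 wk. Since these cells met the rule they were kept in every count and test. Values without them are given beside many of the results that turn on them, but not for every gene.

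**Figure D1:**
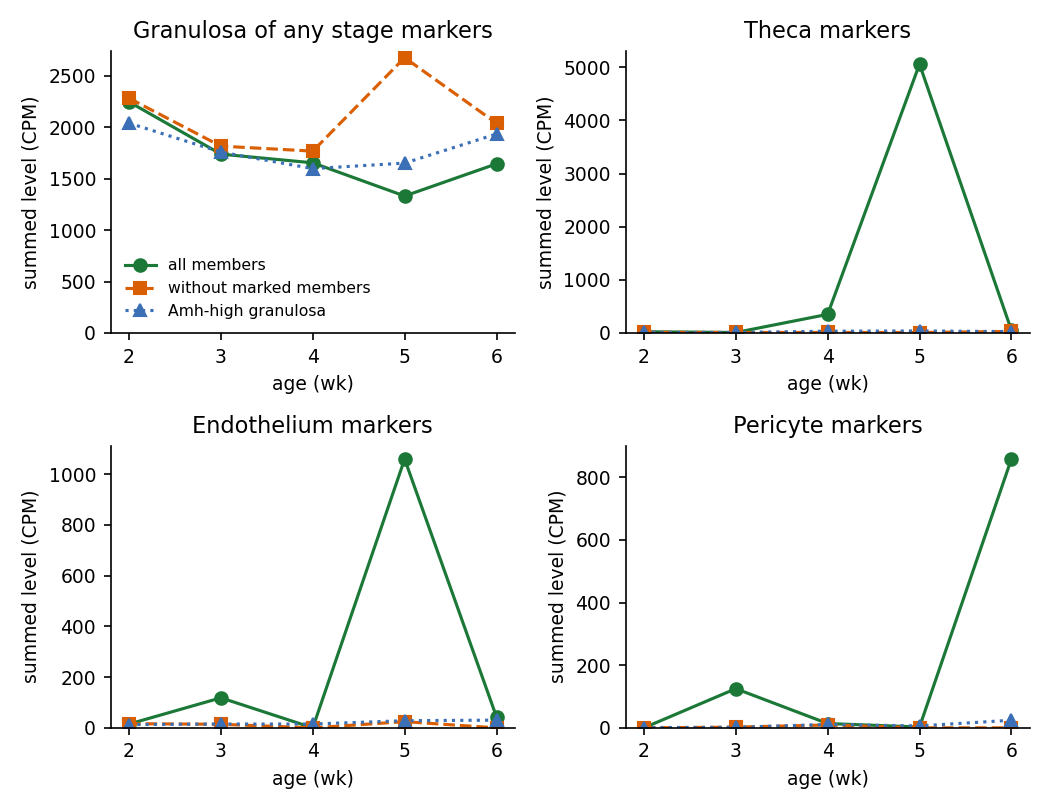
Summed level (CPM, linear axis from 0) of marker genes of granulosa, theca, endothelium and pericytes against age (wk), for all pregranulosa members (circles), for members without those marked as another type (squares) and for Amh-high granulosa (triangles). The theca level of 5059 CPM at 5 wk and the pericyte level of 858 CPM at 6 wk both are 8.11 CPM or less without the marked cells.

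Scrublet called 2 members doublets, 1 at 4 wk and 1 at 5 wk. Barcodes were shared between libraries 273 times, and 1 member barcode, from 6 wk, was also present in another library.

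Members were most frequent in the 2 wk library. They made up 1.01% of cells past the limits at 2 wk (exact 95% binomial interval 0.796 to 1.25%), 0.627% at 3 wk (0.462 to 0.830%), 0.153% at 4 wk (0.0835 to 0.256%), 0.290% at 5 wk (0.175 to 0.452%) and 0.136% at 6 wk (0.0703 to 0.237%). The intervals cover counting error only and not the spread between mice. The intervals at 2 and 3 wk lay above those at 4 and 6 wk, and the 3 wk and 5 wk intervals did not overlap by a small margin.

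The share at 2 wk was 7.40 times that at 6 wk (interval 4.00 to 14.9), and the share at 3 wk was 2.16 times that at 5 wk (1.25 to 3.90). Without the marked cells the shares were 0.941%, 0.601%, 0.131%, 0.168% and 0.102%, the ratio of 2 wk over 6 wk was 9.23 (4.60 to 21.0), and that of 3 wk over 5 wk was 3.58 (1.83 to 7.66). A share depends on all other cells of the library, and fewer pregranulosa cells and more of other cells cannot be told apart. Among Inha-positive cells of the same gate, members made up 4.92% at 2 wk, 1.93% at 3 wk, 0.331% at 4 wk, 0.801% at 5 wk and 0.395% at 6 wk. The share of cells with at least 3 of the 5 markers was also highest at 2 wk outside the members, at 10.8%, 1.97%, 0.547%, 2.21% and 2.63% of Amh-high granulosa and at 4.74%, 1.20%, 1.03%, 1.46% and 1.5% of stroma, so the higher share at 2 wk was not seen in members alone. With at least 4 markers the ratio of 3 wk over 5 wk was 1.71 (0.459 to 7.77), an interval that holds 1. No test between 2 single ages was possible with 1 library for each, and a trend over the 5 ages was not tested.

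**Figure D2:**
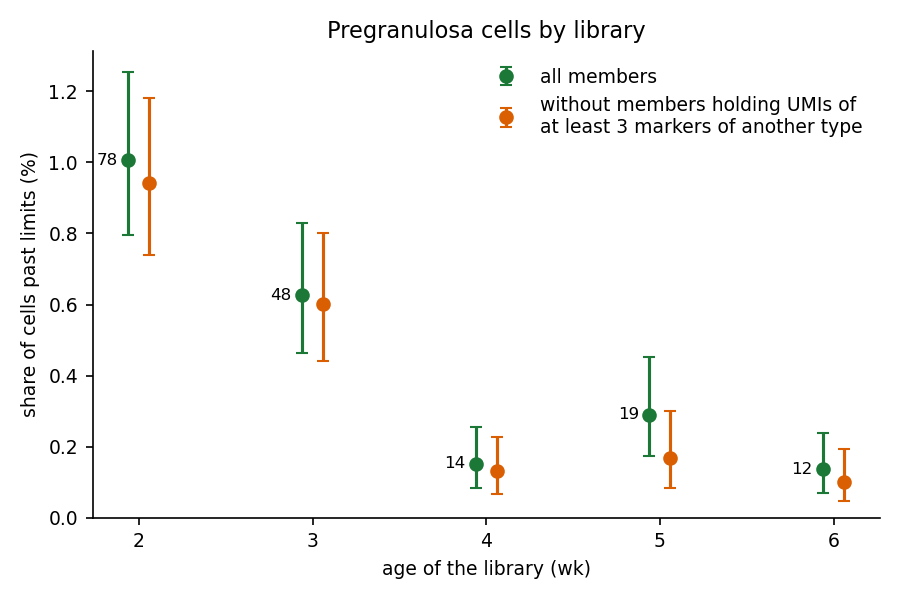
Share of cells past the limits (%, linear axis from 0) that were pregranulosa members against age (wk), with exact 95% binomial intervals for counting error; the numbers are members, and the orange points leave out members marked as another type. The shares were 1.01% at 2 wk, 0.153% at 4 wk, and 0.290% and 0.136% at 5 and 6 wk.

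Members were compared with granulosa cells of growing follicles. These were cells with the same limits on genes, mitochondrial share, Inha, Krt19, Lgals7 and Dcn but at least 10 UMIs of Amh, called Amh-high granulosa here. They numbered 594, 964, 914, 362 and 457, and they were deeper than members, with medians of 19954, 15573, 17760, 24944 and 25458 UMIs. UMIs were summed for each library and class and tested with edgeR's quasi-likelihood test, with the library as a block, so that the 5 ages served as replicates. A gene was called at a Benjamini-Hochberg adjusted p under 0.05 and a change of at least 2-fold. Both classes were set by limits on the 10 genes of the rule, which were left out, and any gene that varies from cell to cell with those 10 differs between the classes by construction. That is a limit on every call below.

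Of 11248 genes tested, 766 were higher in pregranulosa cells (6.81%) and 464 were lower (4.13%). Among 28 gene lists, basement membrane, immediate-early, Notch and insulin-like growth factor genes held the largest shares of higher genes, and genes of DNA replication and mitosis the largest shares of lower genes. In the 2 and 3 wk libraries alone, where few members held markers of another type, 789 of 11850 genes were higher (6.66%) and 521 lower (4.4%). Of the 766 higher genes 531 (69.3%) were called again there, and of the 464 lower genes 340 (73.3%). This fit had 4 sums and 1 residual degree of freedom, and it uses part of the same libraries, so it is no independent check.

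Ifi204, a member of the interferon-inducible p200 family of nuclear DNA sensors, had a fitted fold change among the largest of the named genes higher than in Amh-high granulosa, next to Cyp11a1 (log2 fold change 5.85 ± 0.92), which is described below. Its level was 139.8, 221, 41.2, 53.8 and 43.1 CPM in pregranulosa cells at 2, 3, 4, 5 and 6 wk, and 2.51, 1.29, 0.819, 1.05 and 1.69 CPM in Amh-high granulosa. Every pregranulosa value stood above every Amh-high value, and the log2 fold change was 5.86 ± 0.36 (SE, n = 5 libraries, edgeR quasi-likelihood test, adjusted p = 1.8e-06). The levels were 134.8, 228.5, 45.6, 137.9 and 21.8 CPM without the marked cells. Surface epithelium, described below, held 6.12 CPM at 2 wk and none at the other ages.

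Mndal, of the same family, was at 35.4, 100.8, 41.2, 66.6 and 105.5 CPM against 2.35, 1.35, 1.52, 4.42 and 8.03 CPM, a log2 fold change of 4.31 ± 0.38 (SE, n = 5 libraries, edgeR adjusted p = 2.1e-05). Ifi203, another relative that was picked after its values were seen, was at 14.0, 37.3, 13.7, 38.4 and 110.3 CPM against 0.162, 0.184, 0.877, 0.527 and 2.33 CPM. Its value of 110.3 CPM at 6 wk was 7.26 CPM without the marked cells. All of them lie on chromosome 1 of GRCm38, on the minus strand, Ifi204 at 173747293 to 173766943, Mndal at 173849126 to 173942491 and Ifi203 at 173920407 to 173942672. Mndal and Ifi203 overlap and the family is close in sequence, so the split of reads among its members is uncertain.

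Since these neighbours moved together, their promoters were searched for GAAA, any 2 bases and GAAA again, the core of the interferon-stimulated response element, on both strands of the 250 bases before the start site. RefSeq promoters of GRCm38.p6 were given for Ifi203 and Mndal and held the letters at 1 and 2 of their starts. In all, 2.98% of 32851 promoters held them. The windows are shown in the direction of the gene, with the letters of the motif in capitals. The first 2 windows are the same in both genes, and the last is from Mndal alone.
Ifi203, chr1:173942508-173942537, minus strand: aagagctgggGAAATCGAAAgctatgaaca
Mndal, chr1:173880204-173880233, minus strand: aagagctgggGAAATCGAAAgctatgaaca
Mndal, chr1:173879993-173880022, minus strand, motif on the opposite strand: ttttgagtcaTTTCTCTTTCtactcaaaac
A match is a description of the letters and shows no binding.

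Basement membrane genes formed the list with the largest share of higher genes. Of 20 tested, 12 were higher and none lower, with a median log2 fold change of 1.91 against -0.01 over all genes. Col4a1, a chain of type IV collagen, was at 190.2, 361.7, 157.9, 256 and 1016 CPM at 2, 3, 4, 5 and 6 wk against 23.4, 11.9, 20.5, 12.9 and 25.5 CPM in Amh-high granulosa. The log2 fold change was 4.03 ± 0.33 (SE, n = 5 libraries, edgeR adjusted p = 1.55e-05). The value of 1016 CPM at 6 wk stood apart, and without the marked cells the 5 levels lay between 154.1 and 200.5 CPM, still all above Amh-high granulosa.

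Its partner chain Col4a2, whose gene overlaps the start of Col4a1, was also higher, at 77.4 to 316.4 CPM against 9.08 to 13.5 CPM. Nid1, which links the collagen to laminin networks, was at 90.4, 76.7, 20.6, 56.3 and 47.9 CPM against 6.81, 3.87, 4.21, 1.69 and 4.26 CPM, and at 14.5 to 85.4 CPM without the marked cells. Sparc, a collagen-binding matrix protein, was the most abundant gene of the list at 1011 to 1618 CPM against 81.7 to 276.8 CPM. Sparc was at 356.9 and 319.3 CPM at 5 and 6 wk without the marked cells, still above the Amh-high values. Laminin chains Lamb1, Lamc1, Lama2 and Lama4 and the proteoglycan Agrn were higher too. In the 2 and 3 wk libraries alone, 13 of 21 basement membrane genes were higher.

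Other named genes with a large rise had varied roles. Cald1, which binds actin and myosin, was at 443, 662, 542, 243 and 729 CPM against 16, 17.4, 95.9, 43.5 and 39.6 CPM in Amh-high granulosa, a log2 fold change of 3.74 ± 0.39 (SE, n = 5 libraries, edgeR adjusted p = 5.34e-05). Its levels without the marked cells were 219 to 634 CPM. Akap12, a scaffold for protein kinase A, was at 155.7, 89.9, 89.2, 161.3 and 19.2 CPM against 17.2, 7, 3.98, 3.90 and 5.38 CPM. At 6 wk it was at 7.26 CPM without the marked cells, close to the Amh-high level. Angptl6, an angiopoietin-like secreted protein, was at 151.0, 146.9, 164.7, 30.7 and 19.2 CPM against 5.21 to 9.97 CPM, and Fxyd1, a small regulator of the sodium pump, at 25.2 to 189.5 CPM against 2.00 to 4.05 CPM. Angptl6 and Fxyd1 were at 21.8 to 209.6 and 22.6 to 87.1 CPM without the marked cells.

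A further 4 of the 12 named higher genes leaned on the marked cells. Cyp11a1 was at 5.59, 2.19, 240.2, 2571 and 28.8 CPM, and at 0 to 7.26 CPM without those cells, where Amh-high granulosa had 0.648 to 7.66 CPM. Iigp1, an interferon-inducible GTPase, reached 227.9 CPM at 5 wk and 0 without them, and Emp1, a membrane protein, reached 151.1 CPM and 0. Emp1 was still called without the 5 wk library (log2 fold change 3.59, edgeR adjusted p = 0.00257) and in the 2 and 3 wk libraries alone (3.06). Its log2 ratio at 2 wk was 0.042, so the latter call rests on the 3 wk library. Emp1 levels without the marked cells were 2.06, 23.3, 27.3, 0 and 7.26 CPM against 0.964 to 5.06 CPM in Amh-high granulosa. Sparcl1, a matrix protein related to Sparc, was at 151.1 CPM with and 0 CPM without them at 5 wk, and at 191.7 and 123.4 CPM at 6 wk. The part of the marked cells in the calls of these 4 genes is thus visible in their levels, and no test was run without them.

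**Figure D3:**
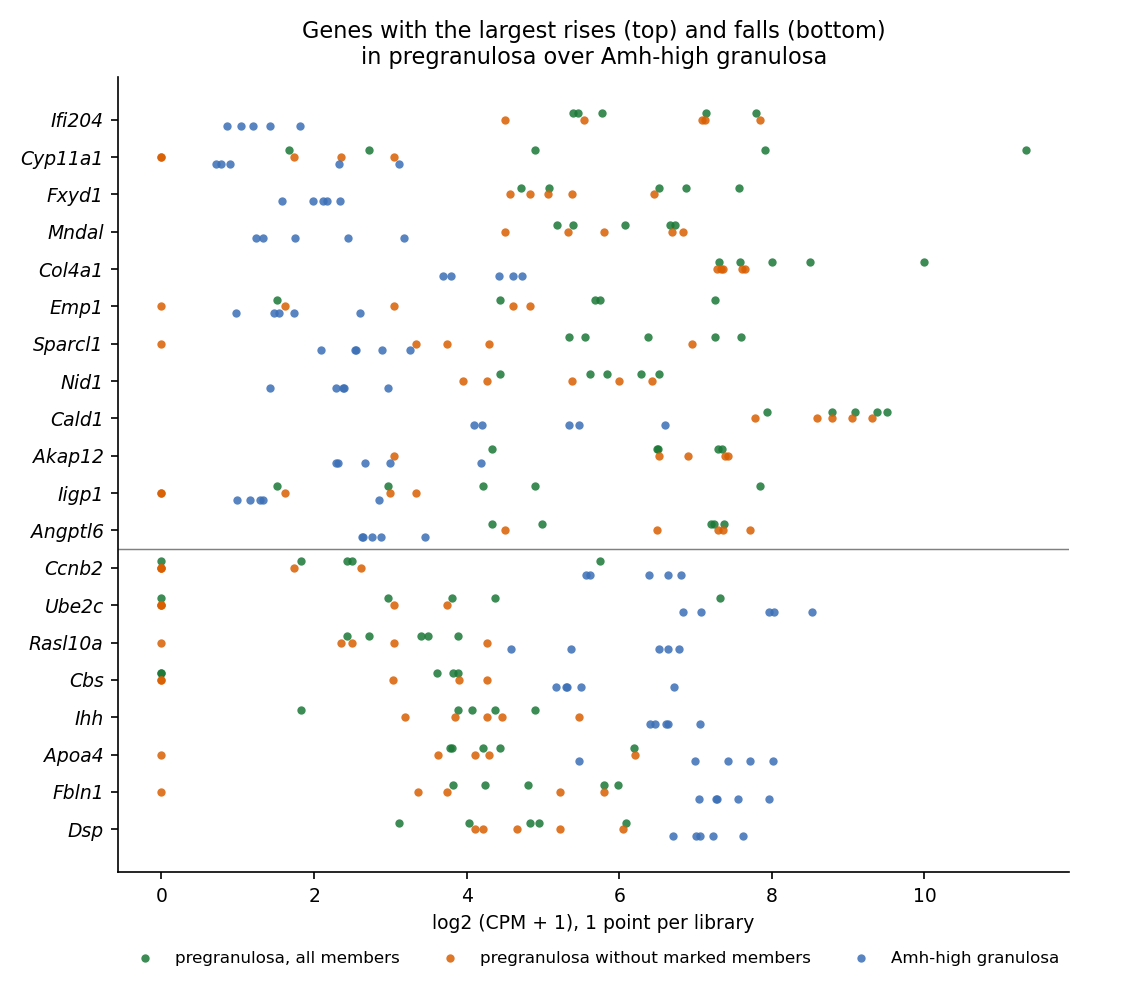
Levels as log2(CPM + 1), 1 point for each library, of the 12 named genes that were higher (above the line) and the 8 that were lower (below it) in pregranulosa cells than in Amh-high granulosa; green is all members, orange leaves out members marked as another type, and blue is Amh-high granulosa. Ifi204, Col4a1 and Cald1 do not overlap with Amh-high granulosa in either set of members, while the orange points of Cyp11a1, Emp1 and Iigp1 reach 0.

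Cell cycle genes were lower almost throughout. Of 20 genes of G2 and mitosis 19 were lower and none higher, with a median log2 fold change of -2.22, and of 20 S phase genes 16 were lower and none higher, with a median of -1.44. Ccnb2, a cyclin of mitosis, was at 4.66, 4.38, 0, 2.56 and 52.7 CPM at 2, 3, 4, 5 and 6 wk against 48.0, 46.5, 98.4, 110.8 and 83.0 CPM in Amh-high granulosa. The log2 fold change was -3.04 ± 0.47 (SE, n = 5 libraries, edgeR adjusted p = 0.000724). The 6 wk value was the only one to overlap with Amh-high granulosa, and it was 0 without the marked cells.

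Ube2c, which targets mitotic cyclins for destruction, was at 13.1, 19.7, 6.86, 0 and 158.2 CPM against 113 to 368 CPM. Mki67, the proliferation marker, was at 18.6, 59.2, 0, 17.9 and 259 CPM against 128.5, 118.5, 203.1, 215.1 and 185.1 CPM. The Mki67 value of 259 CPM at 6 wk lay above Amh-high granulosa and was 0 without the marked cells. Its log2 fold change was -1.86 ± 0.50 (SE, n = 5 libraries, edgeR adjusted p = 0.0191), and without the 2 wk library the adjusted p was 0.0618. The replication helicase genes Mcm2 to Mcm7 were all among the lower S phase genes.

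The number of dividing cells was counted after each cell had been thinned to 3000 UMIs. At least 5 of the 20 G2 and mitosis genes had a UMI in 2 of 78 members at 2 wk, 1 of 48 at 3 wk, 0 of 14 at 4 wk, 0 of 19 at 5 wk and 1 of 12 at 6 wk. In Amh-high granulosa the shares were 12.8%, 15%, 29.9%, 33.1% and 25.8%. The exact 95% intervals of members reached 8.96% at 2 wk and 11.1% at 3 wk, below 10.2 and 12.8%, the lower limits of Amh-high granulosa. At 4 and 5 wk the counts of 0 allow shares of up to 23.2 and 17.6%, below the lower limits of 26.9 and 28.3%, and at 6 wk the interval reached 38.5% and overlapped. These intervals cover counting error within a library and not the spread between mice, so they are no test between the classes. Amh-high granulosa was picked by its Amh UMIs before thinning, and the part of depth in that choice was not tested.

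Of 12 D cyclins and inhibitors of cyclin-dependent kinases 3 were higher and none lower. Cdkn1b, the p27 inhibitor of cyclin-dependent kinases known to hold follicles at rest (GRCm38 chromosome 6, 134920401 to 134925513, plus strand), was at 190.2, 122.8, 130.4, 120.3 and 62.3 CPM in pregranulosa cells against 53.2, 46.5, 48.7, 56.4 and 44.3 CPM in Amh-high granulosa. It was higher in 5 of 5 libraries, with a log2 fold change of 1.19 ± 0.18 (SE, n = 5 libraries, edgeR adjusted p = 0.0007), and in the fit without the 2 wk library the change of 0.97 was under 2-fold. Its levels without the marked cells were 79.8 to 227.1 CPM. Cdkn1a, another inhibitor, and Ccnd3, a D cyclin, were the other higher genes of the list.

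Ligands and receptors of follicle growth differed in both directions. Kitl, the KIT ligand, was at 304.8, 315.7, 329.5, 299.6 and 302 CPM in pregranulosa cells, against 197.5, 141.8, 55.2, 90.3 and 72.0 CPM in Amh-high granulosa. The log2 fold change was 1.44 ± 0.22 (SE, n = 5 libraries, edgeR adjusted p = 0.000774), and it was 0.71 in the 2 and 3 wk libraries alone, under 2-fold. The Kitl levels without the marked cells were 296.4, 317.1, 337.2, 446.1 and 399.1 CPM. Kitl was the only one of 26 PI3K, mTOR and FOXO genes to be called, and Foxo3 was at 27.5 to 35.4 CPM against 19.4 to 47.9 CPM with no call (log2 fold change -0.05 ± 0.24, edgeR adjusted p = 0.956). Fshr, the receptor of follicle-stimulating hormone, was lower, with 1 UMI over all members and 4.05 to 13.0 CPM in Amh-high granulosa.

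Nr5a2, a nuclear receptor needed for granulosa growth and ovulation (GRCm38 chromosome 1, 136842571 to 136960448, minus strand), was at 214.4, 105.2, 116.7, 153.6 and 354.7 CPM against 313.9, 439.9, 395.7, 333.8 and 435.3 CPM. The log2 fold change was -1.23 ± 0.23 (SE, n = 5 libraries, edgeR adjusted p = 0.00232), with the gene lower in 5 of 5 libraries and closest to Amh-high granulosa at 2 and 6 wk. Without the marked cells it was at 195.5, 111.9, 63.8, 324.4 and 297.5 CPM, where the 5 wk level came near the Amh-high value. Foxl2 (log2 fold change 0.19 ± 0.14, edgeR adjusted p = 0.727), Amhr2, the receptor of anti-Mullerian hormone (0.14 ± 0.15, adjusted p = 0.569), Wnt4 (-0.22 ± 0.28, adjusted p = 0.641) and Igfbp5 (0.17 ± 0.32, adjusted p = 0.775) were not called. Lgr5, a marker of the fetal surface epithelium that gives cortical pregranulosa cells, had 3 UMIs at 2 wk and 0 at later ages, where surface epithelium held 13.4 to 88.1 CPM.

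Of 34 genes of TGF-beta, activin and BMP signalling, 11 were higher and 2 lower. Id1, a target of BMP signals, was at 245.2, 177.6, 116.7, 189.5 and 186.9 CPM against 65.4 to 116.0 CPM and was called, with a change of 0.87 on the log2 scale in the fit without the 2 wk library. The lower genes were Inhbb, the activin B chain, and Fst, the activin antagonist follistatin. Fst was at 102.5, 107.4, 130.4, 46.1 and 234.9 CPM against 262, 353, 429, 483 and 639 CPM, lower in 5 of 5 libraries with a log2 fold change of -1.99 ± 0.23 (SE, n = 5 libraries, edgeR adjusted p = 0.000112). Its levels without the marked cells were 40.6 to 355.6 CPM, and it was picked after its values were seen.

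Notch signalling genes were higher in 5 of 10 tested, with a median log2 fold change of 1.38 and none lower. After thinning to 3000 UMIs only 5 could be tested, of which 1, Heyl, was higher, with a median of 0.55. Heyl, a transcriptional target of Notch, was at 81.1, 105.2, 82.4, 53.8 and 86.3 CPM against 18.1, 14.4, 33.5, 19.5 and 22.3 CPM, and its levels without the marked cells were 43.5 to 102.6 CPM. Hey1, a 2nd target, was at 114.7, 68.0, 34.3, 81.9 and 19.2 CPM against 4.26 to 10.3 CPM, and at 14.5 to 113.2 CPM without the marked cells. The ligand gene Jag1 and the receptor gene Notch1 were higher as well, but Jag1 stood at 143.4 and 43.1 CPM at 5 and 6 wk and at 6.58 to 7.46 CPM at 2, 3 and 4 wk. In the 2 and 3 wk libraries alone, Hey1, Heyl, Notch1, Notch2 and Nrarp were the 5 higher of 11.

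Hedgehog ligands, which growing follicles send to recruit theca cells, were lower. Ihh was at 15.8, 19.7, 13.7, 2.56 and 28.8 CPM against 83.7, 98.4, 96.5, 87.2 and 131.7 CPM, with no overlap and a log2 fold change of -2.76 ± 0.26 (SE, n = 5 libraries, edgeR adjusted p = 3.11e-05). Dhh was at 6.86 to 35.8 CPM against 36.4 to 57.7 CPM. Of the other named lower genes, Dsp, a plaque protein of desmosomes, was at 7.68 to 67.1 CPM against 103 to 197 CPM, and Cbs, an enzyme that makes cystathionine, at 0 to 13.7 CPM against 35.1 to 104.7 CPM. Apoa4 was at 12.8 to 71.9 CPM against 43.6 to 257 CPM, Fbln1, a matrix protein, at 13.2 to 62.3 CPM against 130.7 to 247.9 CPM, and Rasl10a, a small GTPase, at 4.38 to 13.7 CPM against 22.9 to 109.1 CPM.

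Immediate-early and stress genes, which also respond to dissociation of the tissue, were higher in 12 of 21 and lower in none, with a median log2 fold change of 1.11. Btg2, an antiproliferative gene of this list, was at 1481, 1182, 1290, 1861 and 2291 CPM against 196.5 to 405.8 CPM, and Klf2, a Krüppel-like transcription factor, at 681 to 929 CPM against 70.0 to 163.2 CPM. Fos was at 1866 to 3569 CPM against 999.4 to 2054 CPM and stayed under 2-fold (log2 fold change 0.93 ± 0.14, edgeR adjusted p = 0.000728). The part of dissociation in these values was not tested. Mcl1, an inhibitor of cell death of the BCL2 family, was at 297 to 561 CPM against 131 to 199 CPM and was called.

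MHC class I genes were higher in 5 of 11 and interferon-stimulated genes in 5 of 14, with none lower in either. H2-D1, a class I heavy chain, was at 244.2, 72.4, 68.6, 427.6 and 124.6 CPM against 28.3, 21.7, 43.7, 66.9 and 39.1 CPM, and at 73.0 CPM instead of 427.6 at 5 wk without the marked cells. Isg15 stood at 186.9 CPM at 5 wk and at 3.73 to 20.6 CPM at the other ages. In the 2 and 3 wk libraries alone, H2-D1, H2-K1 and Tapbp were the 3 higher class I genes of 11, and Ifitm3, Irf1 and Irf9 the 3 higher interferon-stimulated genes of 14.

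Genes of the insulin-like growth factor system were higher in 6 of 12 and lower in 1, Igf1. Igfbp2, which binds the growth factors, was at 428, 276, 185, 177 and 76.7 CPM against 57.1 to 118.3 CPM and was higher in 5 of 5 libraries, with a log2 fold change of 1.45 ± 0.19 (SE, n = 5 libraries, edgeR adjusted p = 0.000253). Its levels without the marked cells were 101.6 to 439.5 CPM. Igfbp7 was at 25.2, 206, 48.0, 904 and 738 CPM, and at 0 to 14.4 CPM without the marked cells. Of 30 nuclear genes of oxidative phosphorylation none was called in either direction, with a median of -0.38, and of 18 cholesterol synthesis genes 1 was lower. Of 24 WNT and RSPO genes 3 were higher, of 17 glycolysis genes 2 were lower, and of 28 antioxidant genes 4 were higher.

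**Figure D4:**
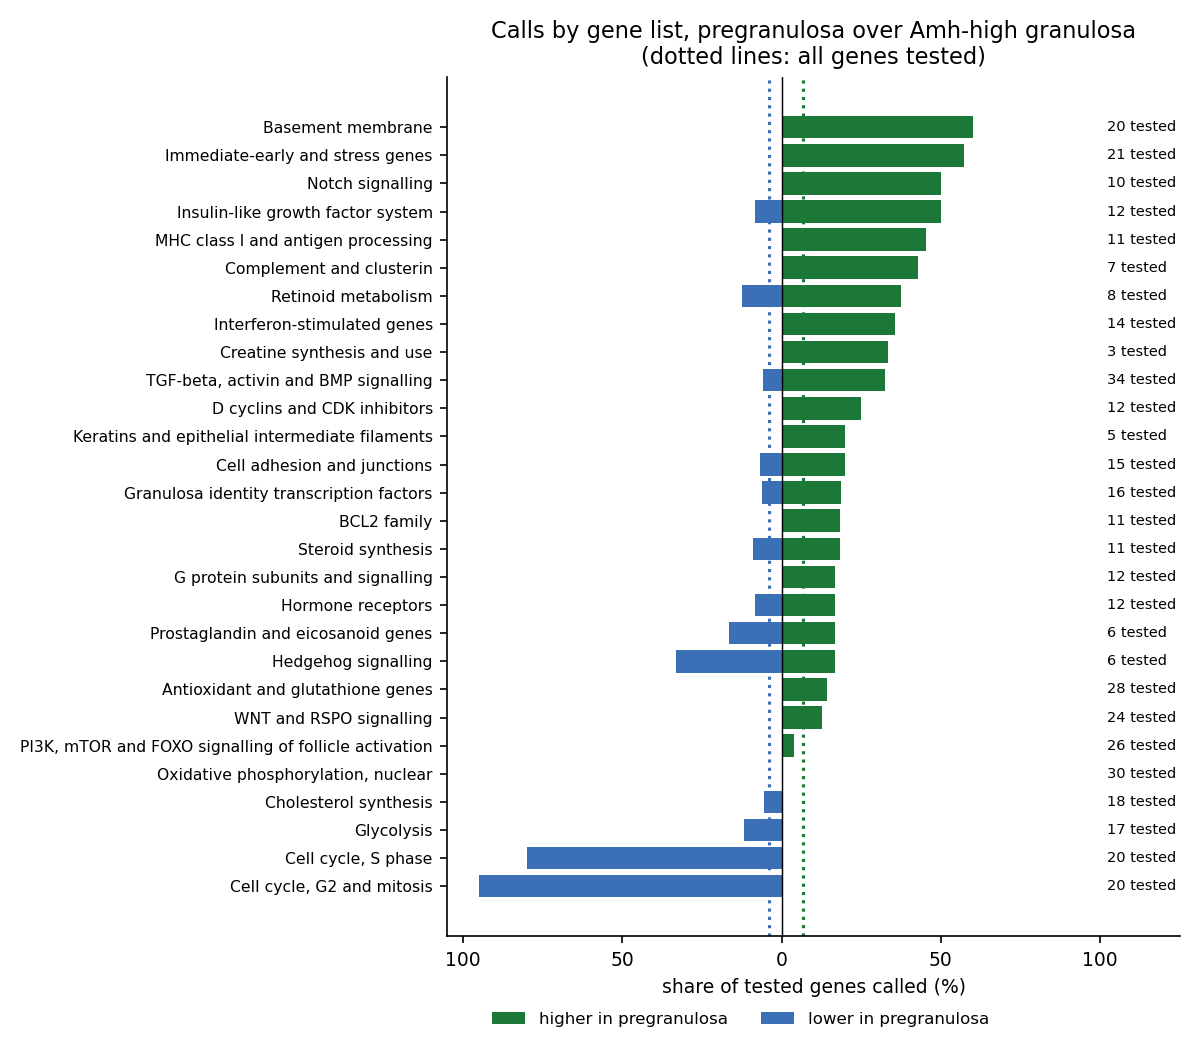
Share of tested genes (%) of each of 28 gene lists that were called higher (green, to the right) or lower (blue, to the left) in pregranulosa cells than in Amh-high granulosa; the dotted lines mark 6.81% and 4.13%, the shares over all genes. Basement membrane genes reach 12 of 20 higher, and G2 and mitosis genes 19 of 20 lower.

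The levels were next set in order of Amh, the hormone that growing granulosa cells make. For this, cells with at least 3 of the 5 markers and all limits but that on Amh were split at 0, 1 to 2, 3 to 9 and 10 or more Amh UMIs. They numbered 40, 38, 46 and 64 at 2 wk and 23, 25, 31 and 19 at 3 wk. Members are the lower 2 steps, and Amh chose them, so this is a description without a test.

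Ifi204 was at 201, 85.8, 5.22 and 7.23 CPM over the 4 steps at 2 wk and at 294, 168, 128 and 9.94 CPM at 3 wk. It was thus low from 3 Amh UMIs on at 2 wk and from 10 on at 3 wk. Cald1 was at 620, 287, 161 and 35.4 CPM at 2 wk and at 949, 450, 215 and 76.2 CPM at 3 wk, lower at every step in both libraries. Col4a1 went from 199.4 to 43.4 CPM and from 562.4 to 72.9 CPM between the first and last steps, but these steps hold the marked cells, without which the level in all 3 wk members was 163.2 instead of 361.7 CPM.

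Cdkn1b went from 249 to 78.0 CPM over the steps at 2 wk, while at 3 wk it was at 113.5, 129.6, 67.8 and 86.1 CPM. Mki67 was at 1.99, 33.3, 67.9 and 224.0 CPM at 2 wk, and at 67.1, 53.4, 16.9 and 162.3 CPM at 3 wk. The level in 3 wk members was 59.2 CPM with and 21.0 CPM without the marked cells. Nr5a2 was at 187.5, 238.1, 227.1 and 264.5 CPM at 2 wk and at 87.7, 118.2, 280.8 and 231.9 CPM at 3 wk. Foxl2 was at 420.8, 388.6, 395.5 and 393.9 CPM at 2 wk, an even level, and at 242.5, 224.9, 273.6 and 178.9 CPM at 3 wk.

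**Figure D5:**
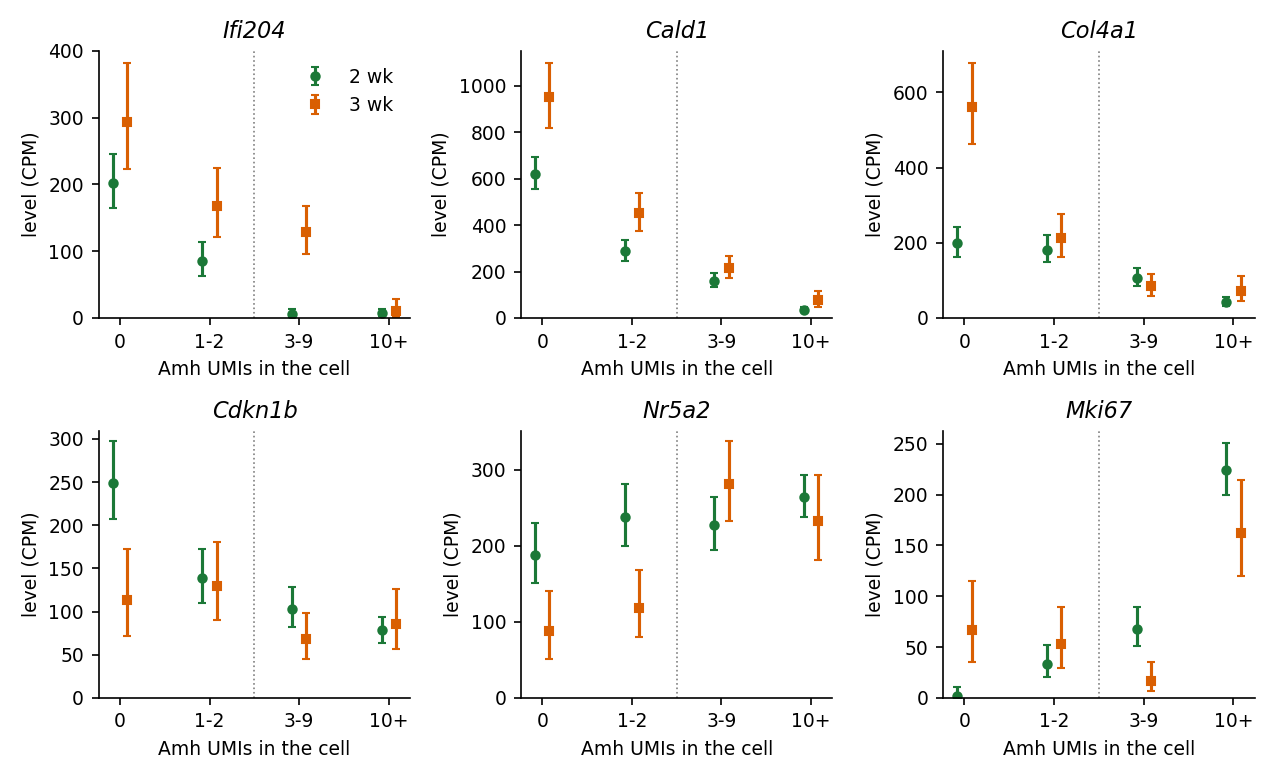
Level (CPM, linear axes from 0) of 6 genes against the Amh UMIs of the cell, in marker-positive granulosa cells of the 2 wk (circles) and 3 wk (squares) libraries, with 95% Poisson intervals for counting error; the dotted line parts members on the left from other cells on the right. Ifi204 goes from 201 and 294 CPM to 7.23 and 9.94 CPM, and Mki67 is highest in cells with 10 or more Amh UMIs.

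Nr5a2 was also read cell by cell, since it may be on in some pregranulosa cells and off in others. A UMI of Nr5a2 was found in 79.5%, 52.1%, 42.9%, 57.9% and 83.3% of members at 2, 3, 4, 5 and 6 wk, against 97.5%, 97.0%, 95.5%, 97.2% and 98.5% of Amh-high granulosa. In blood cells, which should lack it, the share was 6.06%, 6.67%, 8%, 2.47% and 8%, and the intervals of members and blood overlapped at 4 wk (17.7 to 71.1% against 0.984 to 26.0%). After thinning to 3000 UMIs the shares were 44.9%, 25.0%, 14.3%, 26.3% and 41.7% in members and 57.4%, 68.0%, 62.9%, 59.4% and 69.1% in Amh-high granulosa, and in blood cells they were 3.03%, 7.69%, 4.17%, 1.37% and 6%. Thinned member and blood intervals overlapped at 3, 4 and 6 wk. The thinned intervals of members and Amh-high granulosa overlapped at 2 wk (33.6 to 56.6% against 53.3 to 61.4%) and at 6 wk, and did not overlap at 3, 4 and 5 wk.

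Members with and without a thinned Nr5a2 UMI were compared in the 2 and 3 wk libraries, the 2 with at least 10 cells of each kind. Another random thinning than for the shares above was used here, and it gave 31 positive and 47 negative members at 2 wk and 12 and 36 at 3 wk. Of 1870 genes tested, 2 were higher (0.107%), 1 was lower (0.0535%) and 95 had an unadjusted p under 0.05. This fit had 1 residual degree of freedom, and no gene was called by DESeq2, where 3 had an unadjusted p under 0.05. Meg3, a long noncoding RNA, was at 161.3 and 583.3 CPM in Nr5a2-positive members at 2 and 3 wk against 42.6 and 120.4 CPM in the others (log2 fold change 2.15 ± 0.43, edgeR adjusted p = 0.00116). Cxcl10, a chemokine, was lower, at 0 and 27.8 CPM against 148.9 and 129.6 CPM. Hspb1, the other higher gene, had opposite directions in the libraries, at 21.5 against 70.9 CPM at 2 wk and 1000 against 138.9 CPM at 3 wk.

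Pregranulosa cells were further compared with surface epithelium, set here as cells with at least 1 UMI of both Krt19 and Lgals7 and none of Dcn. Lgals7 was also found outside it. Of 382 cells without Krt19 that met the limits on markers, Inha and Amh, 258 lacked Lgals7. Surface epithelium is therefore used as the name of the cells that met these limits. It held 20, 7, 7, 8 and 8 cells at 2, 3, 4, 5 and 6 wk, so that 3107 genes had enough UMIs to be tested. Of these 25 were higher in pregranulosa cells (0.805%) and 34 were lower (1.09%), and 422 had an unadjusted p under 0.05. With the 2 and 3 wk libraries alone, 152 of 6226 were higher (2.44%) and 311 lower (5%).

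The surface epithelium itself was not uniform over the libraries. Ube2c was at 3.06 and 0 CPM in it at 2 and 3 wk and at 577.5, 411.2 and 665 CPM at 4, 5 and 6 wk, and the part of dividing cells in the comparison was not tested. The levels at 4, 5 and 6 wk were above those of Amh-high granulosa. Upk3b, given below, was lowest at 6 wk, and whether all of these cells were surface epithelium was not tested. Since the surface epithelium was picked by 2 epithelial genes that members had to lack, lower levels of other epithelial genes follow in part from the rule and are given as a description. Upk3b, a uroplakin of mesothelium, had 1 UMI over all members and stood at 302.9, 1004, 725, 293.7 and 100.8 CPM in surface epithelium. Lgals2 and Tm4sf5 had no UMI in any member library, and 123 to 320 and 73.9 to 115.2 CPM in surface epithelium. Epcam, an adhesion protein of epithelia, was at 0 to 5.12 CPM against 94 to 388.5 CPM (log2 fold change -6.40 ± 0.46). The keratin genes Krt18 and Krt8 were lower too, with Krt18 at 11.0 to 35.8 CPM against 67.2 to 2288 CPM, and Igfbp5 was at 179.2 to 455.9 CPM against 557.5 to 2554 CPM. Oasl2, an interferon-induced gene, was at 1.86 to 38.4 CPM against 52.9 to 510.3 CPM.

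The 6 named genes higher than in surface epithelium, Chp2, Hs6st2, Fxyd6, Rasgef1b, Itga6 and Pcsk6, were also called against Amh-high granulosa. Both comparisons share the pregranulosa sums, so this is no independent support, and each comparison's values are given side by side. Hs6st2, which sulfates heparan chains, was at 302, 203.9, 205.9, 102.4 and 81.5 CPM in pregranulosa cells against 5.87 to 58.1 CPM in surface epithelium and 17.7 to 62.5 CPM in Amh-high granulosa. Its log2 fold changes were 2.86 ± 0.32 and 2.44 ± 0.20 (SE, n = 5 libraries, edgeR adjusted p = 0.00175 and 1.55e-05). Itga6, the integrin alpha 6 chain that binds laminin, was the most abundant of them at 1050, 846, 611, 428 and 388 CPM against 24.6 to 253.9 CPM in surface epithelium and 72.9 to 473.4 CPM in Amh-high granulosa.

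Fxyd6 was at 344, 232, 158, 161 and 76.7 CPM against 11.7 to 65.9 CPM in surface epithelium, and Rasgef1b, an exchange factor of small GTPases, at 436, 484, 446, 123 and 216 CPM against 16.5 to 143.8 CPM. Chp2, a calcium-binding protein, was at 212.5, 442.8, 164.7, 87.0 and 33.6 CPM against 0 to 82.3 CPM, and Pcsk6, a proprotein convertase, at 361, 232, 220, 81.9 and 62.3 CPM against 0 to 122.4 CPM. Without the marked cells Hs6st2 was at 79.8 to 308.7, Itga6 at 566 to 1233 and Pcsk6 at 94.3 to 370.5 CPM. The calls of Chp2 and Itga6 were lost without the 2 wk library (edgeR adjusted p = 0.0574 for both), as were those of Krt18 (0.0871) and Tm4sf5 (0.0574), and that of Pcsk6 without the 6 wk library (edgeR adjusted p = 0.051), as was that of Oasl2 (0.0699).

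Across ages, each gene was given as the ratio of its CPM at 2 wk over 6 wk, with an exact interval for counting error and no test. Of 4263 genes with at least 50 UMIs, 340 passed 2-fold as higher at 2 wk with an interval on that side of 1 (7.98%), and 152 as lower (3.57%). Without the marked cells these were 282 (7.51%) and 72 (1.92%) of 3756. For 3 wk over 5 wk, 249 of 2936 genes were higher (8.48%) and 265 lower (9.03%). Without the marked cells 137 were higher and 41 lower of 1823 for this pair, so lower genes were then the fewer. Passing in the same direction in both pairs were 59 higher and 26 lower genes, and without the marked cells 20 and 4.

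The 8 named genes higher in young members included 3 transcription factors. Emx2, a homeobox factor of the urogenital ridge, was at 145.4, 120.6, 82.4, 25.6 and 9.59 CPM at 2, 3, 4, 5 and 6 wk, a ratio of 15.2 (interval 4.13 to 126). Irx3, an Iroquois factor that granulosa cells need for contact with the oocyte, was at 112.8, 188.5, 157.9, 56.3 and 4.79 CPM, with 1 UMI at 6 wk and a ratio of 23.5 (4.14 to 937). Dmrta1, of the DMRT family of transcription factors, was at 136.1, 138.1, 68.6, 33.3 and 19.2 CPM. Emx2 without the marked cells was at 156.4, 128.2, 100.2, 81.1 and 14.5 CPM and Irx3 at 111.2, 200.5, 191.4, 89.2 and 7.26 CPM, lower at each age after 3 wk. Dmrta1 was at 143.1, 146.9, 63.8, 105.4 and 21.8 CPM without them, higher at 5 wk than at 4 wk. Perp, a desmosome gene, was at 63.4, 107.4, 61.8, 5.12 and 4.79 CPM, and Cyfip2, a regulator of actin, at 106.3, 109.6, 68.6, 33.3 and 9.59 CPM.

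Emx2, Irx3, Dmrta1, Perp, Cyfip2, Angptl6, Chp2 and Pcsk6 all still passed as higher without the marked cells. In Amh-high granulosa of the same libraries Emx2 was at 126.6, 81.6, 29.4, 38.5 and 45.1 CPM, so a lower level after 3 wk was seen there too, while Irx3 was at 27.6 to 43.6 CPM and did not fall. Hey1 and Hey2 of the Notch list and Wt1, a factor of the early gonad, were higher at 2 wk with and without the marked cells. Gatm, a gene of the rule, was at 1746, 590, 529, 440 and 264 CPM in members, and at 1371 CPM at 5 wk without the marked cells.

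The 8 named genes lower in young members differed in how far they rested on the marked cells. Igfbp7 was at 25.2 CPM at 2 wk and 738 CPM at 6 wk, and at 14.4 and 7.26 CPM without those cells. Fabp5, a fatty acid carrier, was at 21.4, 11.0, 164.7, 194.6 and 469.8 CPM, and at 13.4, 9.33, 173.1, 24.3 and 108.8 CPM without them. Fabp5, Ifitm3, Tm4sf1 and Csrp2 had too few UMIs left to be judged, and Dusp1 no longer passed. Slc6a6, the taurine transporter, still passed at 20.5 CPM at 2 wk and 244.5 CPM at 6 wk (355.6 CPM without the marked cells), but its 5 wk level was 171.5 CPM with and 8.11 CPM without them. Cebpd, an acute-phase transcription factor, passed as well, at 38.1, 72.3, 82.0, 40.6 and 152.4 CPM without them.

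Within the members, some genes varied from cell to cell well beyond counting noise. In members without the marked cells, thinned to 3000 UMIs, the variance over the mean had a median of 1.13 at 2 wk and 1.21 at 3 wk over 754 genes, where counting alone gives about 1. The nuclear noncoding RNA Malat1 varied most, at 21.7 and 25.5, and the mitochondrial genes mt-Co1 and mt-Co3, whose share depends on cell quality, reached 6.01 and 5.86, and 4.33 and 3.83. Fos reached 7.59 and 7.91 and was found in 93.2% and 84.8% of these cells, and Jun reached 6.51 and 10.7. Dnajb1, a heat-shock cochaperone, Fosb and Ier2 varied as well, at 3.85, 3.61 and 3.31 in the lower of the 2 libraries. Immediate-early genes were thus uneven among members, and the part of dissociation or cell quality was not tested.

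Serpinb6a, a protease inhibitor, reached 4.21 and 5.60 with a mean of 7.07 and 5.11 UMIs per thinned cell, and Mgp, a matrix protein, reached 4.84 and 3.34. Stmn1, which destabilizes microtubules, reached 3.14 and 3.50, and Cald1 2.28 and 3.45 with a UMI in 54.8% and 69.6% of cells. Cald1, which was also graded with Amh, was therefore not even within the members. Counts of 73 cells at 2 wk and 46 at 3 wk stand behind these values, and the members of the other 3 libraries were too few.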

How the data were processed

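The authors dissociated ovaries, made 10x libraries and counted UMIs with Cell Ranger 3.1.0 or 6.0.1 against mm10 (per the submitters' processing notes), and deposited 1 matrix of whole-number counts per gene and cell for each age. The notes also name Seurat 4.1.0. No deposited cell annotation was used here, and cells were not clustered. Members were picked by the rule from the counts as deposited. The members and gene lists were chosen with earlier results of these data known.

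UMIs were summed by library and class in Python 3.11.15 and tested in R 4.3.3 with edgeR 4.0.16 (filterByExpr, TMM, quasi-likelihood test, library block, Benjamini-Hochberg adjustment over all genes tested). Since each age had 1 library, the ages served as replicates, and p-values measure the spread between these 5 libraries. DESeq2 1.42.0 was an alternative. Exact intervals came from scipy 1.17.1, thinning to 3000 UMIs from numpy 2.4.6 with a fixed seed, and doublet calls from Scrublet in scanpy 1.11.5, made per library and left in. Marker lists of 7 other cell types marked members with UMIs of at least 3 genes of a type. The fits were tested on simulated data.

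Genes were named by size of change among calls with the same sign in all 5 libraries and at least 50 CPM in the higher class, 12 higher and 8 lower against Amh-high granulosa, 6 and 6 against surface epithelium and against Nr5a2-negative members, and 8 and 8 across ages. Up to 4 of the most abundant genes of each list and a fixed set of follicle genes were added. Ifi203, Jag1, Notch1, Btg2, Klf2, Isg15, Inhbb, Ccnd3, Cdkn1a, Hspb1 and further called list members named without this rule were chosen after their values were seen. Positions are from GENCODE on GRCm38, the assembly of mm10. The result for 1 gene is not reported here.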

Additional observations from a re-analysis of the deposited data

Results flagged for a closer look

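Ihh stood apart in the 5 wk library, where its log2 ratio of pregranulosa cells over Amh-high granulosa was -4.63, while the other 4 libraries lay between -2.73 and -2.16. The gap to the nearest library was 0.770 of the whole range, beyond Dixon's critical value for 5 samples. The 5 wk level was 2.56 CPM, and 8.11 CPM without the cells that held markers of another type. Chance gives such a gap in about 1 of 20 groups, and 20 genes against Amh-high granulosa and 12 against surface epithelium were looked at.

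For 10 named genes the level in pregranulosa cells over that in Amh-high granulosa lay on opposite sides of 1 at 2 wk and at 6 wk, with counting intervals that left out 1. With 1 library for each age the difference between ages was not tested. Only the named genes were searched, and the share over all genes was not computed. Irx3, Perp, Cyfip2 and Fabp5 had been named for their ratio of 2 wk over 6 wk in these same members. Their change of side thus follows in part from that choice. Higher at 2 wk and lower at 6 wk were Irx3 (ratio 4.08 and 0.110), Cyfip2 (3.85 and 0.259), Perp (1.78 and 0.130), Ccnd2 (1.65 and 0.619), Hpgd (1.48 and 0.323) and Krt8 (1.31 and 0.280). Without the marked cells their ratios at 6 wk were 0.166, 0.196, 0.197, 0.817, 0.367 and 0.424.

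Lower at 2 wk and higher at 6 wk were Fabp5 (ratio 0.184 and 1.88), Mki67 (0.145 and 1.40), Bcl2 (0.757 and 2.53) and Cox6c (0.860 and 1.29). Without the marked cells Fabp5 and Mki67 turned to 0.435 and 0 at 6 wk, while Bcl2 and Cox6c were at 1.91 and 1.34.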

How the results depend on the processing

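Against Amh-high granulosa, the 766 higher and 464 lower genes became 406 higher with members holding at least 4 markers, where only the 2 and 3 wk libraries had enough members to enter, and 371 and 307 after thinning to 3000 UMIs. Leaving out 1 library gave 554 to 746 and 345 to 540. Without the library block, which pairs the classes of each library, the counts were 833 and 486, of which 709 and 413 were shared, and against surface epithelium 17 and 22. No paired analysis was possible because each age had 1 library, beyond the pairing of classes within a library.

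Against surface epithelium, leaving out 1 library gave 6 to 29 higher and 9 to 55 lower genes, with the smallest counts without the 2 wk library. Higher and lower counts were 192 and 237 with no filter on low counts, 152 and 311 with 2 and 3 wk only, 137 and 201 with at least 4 markers (2 and 3 wk libraries only, so 2 choices changed at once), 10 and 21 with mitochondrial share under 10%, and 13 and 15 after thinning. Nr5a2-positive members gave 0 and 0 calls by DESeq2, without the block and with no filter, and leaving out a library could not be fitted.

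Across ages, the 340 higher and 152 lower genes became 77 and 18 with at least 200 UMIs and 75 and 16 after thinning, where fewer genes were judged. At least 4 markers, with 1 member at 6 wk, gave 185 higher, a limit of 1.5-fold gave 285 lower, 3 wk over 5 wk gave 265 lower, and leaving out marked cells gave 72 lower, and 137 and 41 for 3 wk over 5 wk. The share ratio of 7.40 became 39.8 with at least 4 markers, 12.5 among Inha-positive cells and 2.16 for 3 wk over 5 wk. The last became 1.71 with at least 4 markers, with an interval of 0.459 to 7.77 that holds 1, and 3.80 with mitochondrial share under 10%.

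No call among 167 pairs of a named gene and a comparison turned to the other direction in 3045 recomputed values. Some values that were not called changed sign, such as Bcl2 from 0.49 to -0.21 and Ccnd2 from -0.12 to 0.50 on the log2 scale with 2 and 3 wk only. Of the recomputed values 2886 kept their side of the threshold, 82 lost the call and 77 gained it. Among the 20 genes named against Amh-high granulosa, Emp1, Iigp1 and Sparcl1 each lost it once. For the other changed values the cause was not tested. Settings that leave out the Inha or Dcn limit, the older libraries or the marked cells were chosen after seeing the data.

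The 14, 19 and 12 members at 4, 5 and 6 wk limit what can be read there. A single UMI was worth 6.86, 2.56 and 4.79 CPM in these libraries, so low genes move in steps of that size.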

Other observations

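Of 24 WNT and RSPO genes 3 were higher in pregranulosa cells than in Amh-high granulosa, against 6.81% of all genes, and 2 of 26 in the 2 and 3 wk libraries alone. Wnt6, a secreted WNT ligand, was at 227.5, 96.5, 137.3, 194.6 and 100.7 CPM against 173.2, 50.2, 21, 33.3 and 48.4 CPM. It was higher in 5 of 5 libraries. In the 2 and 3 wk libraries alone, Nkd1 and Wnt11 were the genes called, and Wnt6 was not. Nkd1, an inhibitor and target of WNT signals, was at 35.8 to 79.2 CPM against 10.3 to 18.3 CPM.

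Of 8 retinoid genes 3 were higher and 1 lower. Aldh1a1, an enzyme that makes retinoic acid, was at 220, 111.8, 555.9, 1826 and 62.3 CPM, and at 72.9 and 81.1 CPM at 4 and 5 wk without the marked cells, against 22.2 to 84.5 CPM in Amh-high granulosa. Gstm1, a glutathione transferase, was at 1127, 973, 1235, 579 and 489 CPM against 167.2 to 656.2 CPM. Gja1, which encodes connexin 43 of the gap junctions among granulosa cells, was lower in 5 of 5 libraries at 295.5, 344.2, 404.9, 553 and 369.1 CPM against 433.7, 775.2, 1072, 1252 and 1159 CPM, and at 229.5 to 405.5 CPM without the marked cells (log2 fold change -1.31 ± 0.14, edgeR adjusted p = 8.83e-05). Hsd17b1, an enzyme of estrogen synthesis, was lower as well, at 70.8, 19.7, 27.5, 35.8 and 196.5 CPM against 128.4, 101.1, 180.9, 340.6 and 379.5 CPM.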
